A study of Mus musculus with 6 samples.

Results

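The genes of iron uptake, export, storage and sensing examined here in mouse soleus number 10, out of 23152 genes with a value. They were chosen by name, as the rows of the array table annotated to exactly 1 of the symbols Tfrc, Slc11a2, Slc40a1, Cp, Fth1, Aco1, Ireb2, Hfe, Hfe2 and Fam132b. All 10 were found, with 142 probe sets among the 233753 that carry a single gene symbol. Tfrc, Hfe and Slc40a1 drew attention to this pathway because their knockout and control values differed in the same arrays. The differences of the 10 genes between the genotypes are therefore given as a description, with no test.

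The knockout group (MKO) comprised Ckmm-Cre; Gna13 flox/flox mice, and the control group (WT) comprised Gna13 flox/flox mice without Cre, with 3 male mice and 3 arrays in each group. All 6 mice were 18 weeks old, had fasted for 14 h and carried floxed Gna13 alleles, which encode the G protein subunit Gα13. Ckmm-Cre is driven by the muscle creatine kinase promoter, so the recombinase acts in striated muscle fibres while vessel, nerve, blood and connective tissue cells of the muscle keep their Gna13. The effects of the deletion and of Cre itself cannot be told apart, because no WT mouse carried Cre. The soleus is a hindlimb muscle rich in slow oxidative fibres, and Affymetrix Mouse Gene 2.0 ST arrays read its RNA as log2 values.

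Cells take up iron mainly by binding transferrin to the transferrin receptor, which carries it into endosomes, where iron is released and moved to the cytosol. Iron that is not used in haem or in iron-sulphur clusters is stored in ferritin or leaves the cell through ferroportin, the exporter that the liver hormone hepcidin removes from the cell surface. Inside the cell, iron regulatory proteins bind hairpins in messenger RNAs and so stabilise the transferrin receptor message and block translation of ferritin when iron is scarce. Muscle holds much iron in myoglobin and mitochondria, and it is a main site of expression of hemojuvelin and a source of erythroferrone, both of which act on hepcidin.

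The arrays were alike in overall level, with median probe set values between 4.87 and 4.95 on the log2 scale, and correlated with a Pearson r between 0.978 and 0.987 across genes, which are not independent replicates. Of the 7 probe sets of Gna13, 17257825 stood at 4.0 ± 0.50 in MKO and 5.96 ± 0.41 in WT (SD, n = 3 each), while 5 others were higher and 1 was lower in MKO. Which probe sets lie in the deleted part was not analysed here, and one outside it checks nothing. Markers of slow fibres were present, with Myh7 at 10.93 ± 0.01 in MKO and 11.03 ± 0.16 in WT (SD, n = 3 each). Fast fibre markers were present too, with Tnnt3 at 11.73 ± 0.06 in MKO and 11.73 ± 0.02 in WT (SD, n = 3 each). The type IIb myosin gene Myh4 ran from 5.11 to 11.72 across the 6 arrays. The slow markers alone thus do not check how purely the soleus was taken. Across all 23152 genes limma called 0 genes higher (0.0%) and 0 lower (0.0%) in MKO at a Benjamini-Hochberg adjusted p under 0.05, so none of the 10 iron genes passed. At an unadjusted p under 0.05 limma listed 1002 genes (4.33%).

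Promoter sequence is shown for the genes whose MKO and WT arrays did not overlap and for which the RefSeq table (GRCm38.p6) holds a window, namely Tfrc, Hfe and Fam132b. Each window runs from 250 bases before to 50 bases after the outermost annotated start, 5′ to 3′ on the gene's strand. Capitals mark matches, on either strand, to ACGTG, the core of hypoxia response elements, or to TGACNNNGC, the core of antioxidant response elements.
Tfrc: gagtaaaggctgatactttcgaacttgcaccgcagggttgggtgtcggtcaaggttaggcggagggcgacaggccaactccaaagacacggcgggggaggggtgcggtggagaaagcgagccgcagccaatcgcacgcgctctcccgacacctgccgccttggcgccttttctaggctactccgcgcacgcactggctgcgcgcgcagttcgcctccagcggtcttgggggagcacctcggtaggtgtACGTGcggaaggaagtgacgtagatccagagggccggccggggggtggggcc
Hfe: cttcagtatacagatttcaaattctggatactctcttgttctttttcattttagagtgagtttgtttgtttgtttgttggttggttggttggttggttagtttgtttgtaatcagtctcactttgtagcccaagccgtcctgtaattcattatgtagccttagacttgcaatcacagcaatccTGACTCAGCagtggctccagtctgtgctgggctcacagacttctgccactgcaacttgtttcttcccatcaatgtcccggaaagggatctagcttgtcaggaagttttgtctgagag
Fam132b: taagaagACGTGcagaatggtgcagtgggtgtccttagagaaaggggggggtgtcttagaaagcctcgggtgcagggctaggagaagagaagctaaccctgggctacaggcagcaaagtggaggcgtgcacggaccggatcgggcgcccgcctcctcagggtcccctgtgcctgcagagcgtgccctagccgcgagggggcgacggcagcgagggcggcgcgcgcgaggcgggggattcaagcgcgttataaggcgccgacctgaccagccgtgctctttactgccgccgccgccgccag
The windows lie at chr16:32608646-32608945 on the plus strand, chr13:23710805-23711104 on the minus strand and chr1:91366180-91366479 on the plus strand. In the Tfrc window ACGTG occupies bases 249 to 253, across the annotated start. The Fam132b window has ACGTG at bases 8 to 12, and the Hfe window has TGACNNNGC at bases 184 to 192. The E-box CACGTG, which contains ACGTG, was in none of the 7 windows found for the 10 genes, 2 of which held ACGTG and 1 TGACNNNGC. Among all 32851 windows, 19.6% held ACGTG, 7.15% CACGTG and 12.4% TGACNNNGC.

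Among the genes of iron import, Tfrc had a lower level in MKO with no overlap of the arrays, while the arrays of Slc11a2 overlapped. Tfrc encodes transferrin receptor 1, which brings iron-loaded transferrin into the cell. Its mean over 21 probe sets was 6.84, 6.84 and 7.03 in the MKO arrays, against 7.44, 8.01 and 7.68 in the WT arrays. The highest MKO array was still below the lowest WT array, by 0.41. The means were 6.91 ± 0.11 in MKO and 7.71 ± 0.28 in WT (SD, n = 3 each), a log2 difference of −0.80 (SE 0.14) or a 1.74-fold lower level. The difference lay beyond the 1st percentile of all genes, which was −0.47. Muscle fibres, vessel cells and other cells contribute to this RNA, and in whole muscle fewer cells of a type and less RNA per cell cannot be told apart.

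**Figure D1:**
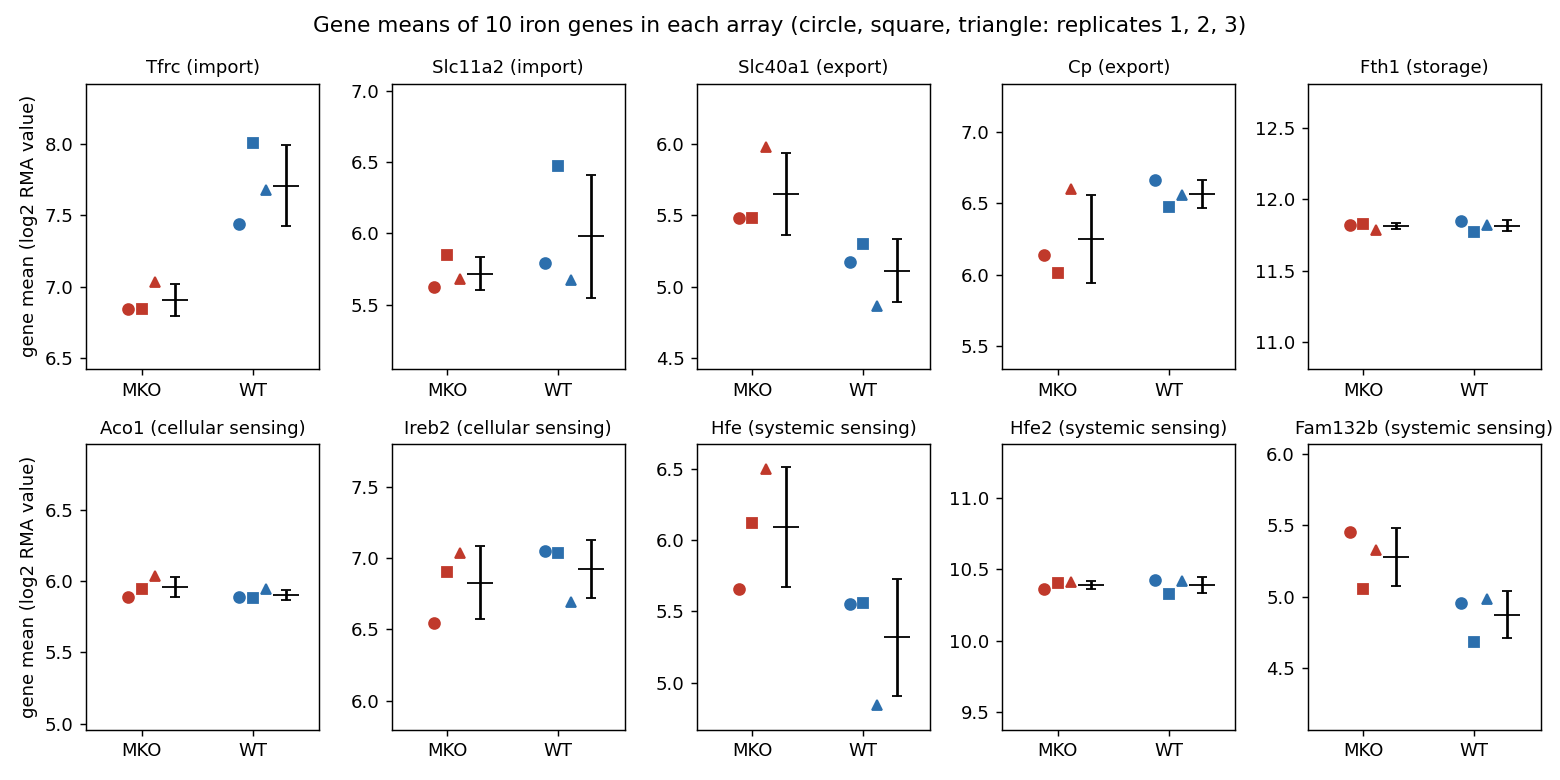
Gene means of the 10 iron genes on the log2 scale, with 1 panel per gene, the 3 MKO arrays (red) left of the 3 WT arrays (blue), and mean ± SD as black bars. Each panel spans the same height of 2 log2 units, and the Tfrc arrays separate by a gap of 0.41, while the Fth1 and Hfe2 arrays lie close together.

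The lower Tfrc value did not rest on a few probe sets. All 21 Tfrc probe sets were lower in MKO, with differences between −2.22 and −0.18 and a median of −0.74. For 14 of the 21 the 3 MKO arrays lay below the 3 WT arrays, which was the case for 5.21% of single probe sets on the array. Of 2981 genes with at least 20 probe sets, 2 genes (0.0671%) were lower in every probe set, Tfrc and the matrix gene Thbs4, and 1 gene (0.0335%) was higher in every probe set. Probe sets of 1 gene read the same RNA samples and are not replicates, so a shift of the gene can lower all of them. The limit of 20 lies just below the 21 probe sets of Tfrc. Tfrc was chosen with this contrast known, so these shares are a description and no test.

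Single Tfrc probe sets differed in level and in how far the groups lay apart. The probe set 17324843 stood at 7.85, 7.72 and 8.24 in the MKO arrays, against 8.74, 9.30 and 9.36 in the WT arrays, a difference of −1.19 with no overlap. The probe set with the lowest difference, 17324849, was dim, at 1.54, 2.06 and 3.14 in MKO and 4.82, 4.49 and 4.09 in WT. It and its 2 neighbours by ID, 17324850 and 17324851, were the 3 Tfrc probe sets below the median probe set of the array. In the brightest one, 17324845, MKO replicate 1 (9.94) lay above WT replicate 1 (9.76), so the groups overlapped although the difference was −0.50. With probe sets above the median level alone, the difference of the gene was −0.75, and the arrays still did not overlap.

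**Figure D2:**
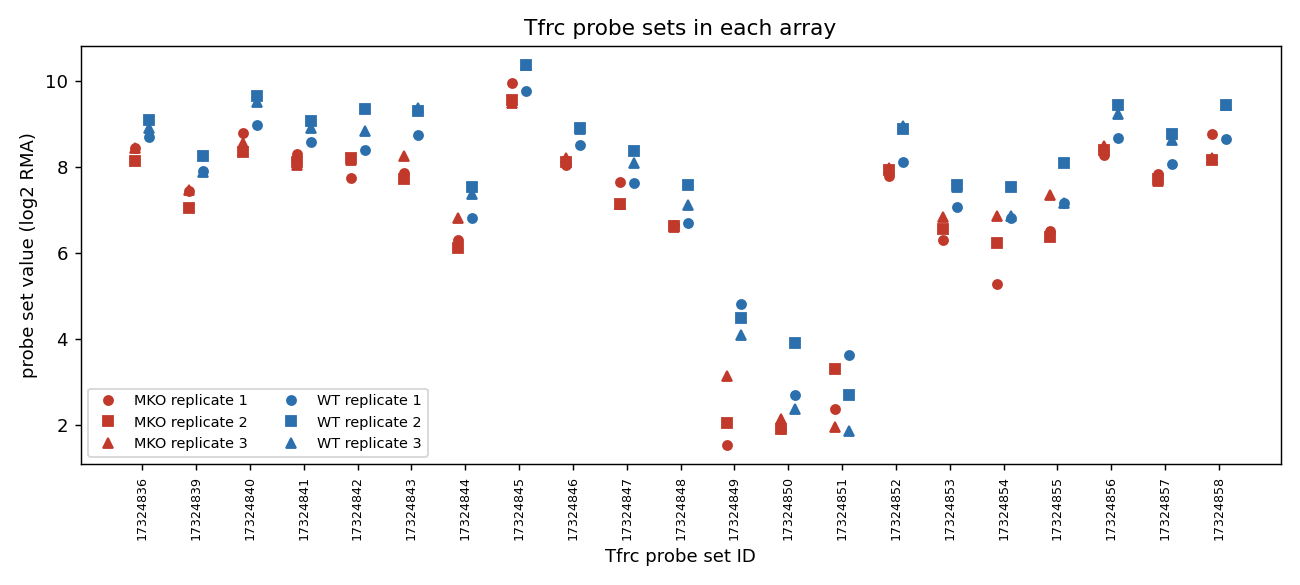
Values of the 21 Tfrc probe sets (log2 RMA value, vertical axis) in order of probe set ID, with MKO arrays in red to the left of WT arrays in blue and 1 symbol per replicate. The 3 dim probe sets 17324849, 17324850 and 17324851 lie below the others, and in 14 probe sets all red symbols lie below all blue ones.

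Slc11a2 encodes DMT1, the transporter that moves iron out of the endosome into the cytosol. Its mean over 18 probe sets was 5.63, 5.85 and 5.68 in the MKO arrays, against 5.79, 6.47 and 5.67 in the WT arrays. The groups overlapped, and the high WT mean came with WT replicate 2, which was also the highest array for Tfrc. The difference was −0.26 (SE 0.19), and it was −0.02 without WT replicate 2 and −0.42 without WT replicate 3.

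The exporter gene Slc40a1 was at a higher level in MKO. It encodes ferroportin, the one known exporter of iron from mammalian cells, and its mean over 9 probe sets was 5.48, 5.48 and 5.98 in the MKO arrays, against 5.17, 5.30 and 4.87 in the WT arrays. No MKO array fell within the WT range, and the gap was 0.18. The means were 5.65 ± 0.29 in MKO and 5.11 ± 0.22 in WT (SD, n = 3 each), a log2 difference of 0.54 (SE 0.17) or a 1.45-fold higher level. Of the 9 probe sets 8 were higher, with differences from −0.08 to 1.26, and in 2 the MKO arrays lay above all WT arrays, against 4.69% of single probe sets on the array. One of the 2 was 17222787, at 6.75, 6.45 and 6.11 in MKO and 5.60, 5.89 and 5.43 in WT. The other, 17222778, had the highest difference and was among the 3 Slc40a1 probe sets below the median level. With the median of its probe sets instead of their mean, the difference of Slc40a1 was 0.28 and the arrays overlapped.

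Cp encodes ceruloplasmin, a copper ferroxidase that oxidises iron as it leaves the cell. Its mean over 18 probe sets was 6.14, 6.01 and 6.60 in the MKO arrays, against 6.66, 6.47 and 6.56 in the WT arrays. MKO replicate 3 lay within the WT range while the other MKO arrays lay below it, and the difference was −0.31 (SE 0.15). It was −0.49 without MKO replicate 3, −0.20 without MKO replicate 2 and −0.50 with the median of probe sets. Of its probe sets 14 were lower in MKO. In 2 of them, 17396265 and 17396267, the MKO arrays lay below all WT arrays, beside 5.21% of single probe sets on the array. The exporter and the ferroxidase gene thus had differences of opposite sign.

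Fth1, the heavy chain of the iron storage protein ferritin, was bright and nearly equal in both groups. Its mean over 6 probe sets was 11.82, 11.83 and 11.79 in the MKO arrays, against 11.85, 11.77 and 11.82 in the WT arrays. The groups overlapped in the gene mean and in all 6 probe sets, whose differences ran from −0.09 to 0.12. The difference of the gene was −0.002 (SE 0.05), and its sign turned under 6 of 15 alternatives, within −0.02 to 0.04. The ferritin message is controlled mainly through its translation, which an array of RNA levels does not read.

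The cytosolic iron sensors differed little in the mean. Aco1 encodes iron regulatory protein 1, which is a cytosolic aconitase when it carries an iron-sulphur cluster, and Ireb2 encodes iron regulatory protein 2, which is degraded when iron is plentiful. Aco1 stood at 5.89, 5.95 and 6.03 in the MKO arrays, against 5.89, 5.88 and 5.94 in the WT arrays, a difference of 0.05 (SE 0.12) over 23 probe sets. Ireb2 stood at 6.54, 6.91 and 7.04 in the MKO arrays, against 7.05, 7.03 and 6.69 in the WT arrays, a difference of −0.10 (SE 0.15) over 22 probe sets. The groups overlapped for both genes, and the sign of Ireb2 turned to 0.05 without MKO replicate 1, its lowest array. The Aco1 difference was 0.01 without MKO replicate 3, 0.09 without MKO replicate 1 and 0.14 with probe sets above the median level alone. The remaining MKO arrays lay above the WT arrays for Aco1 without MKO replicate 1 and without WT replicate 3.

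Single probe sets of both sensors departed from their gene means, and they are named here because of their values. The Aco1 probe set 17412754 stood at 5.65, 7.02 and 6.71 in the MKO arrays, against 4.31, 4.09 and 3.89 in the WT arrays, a difference of 2.36 with no overlap. The Ireb2 probe set 17517439 stood at 6.17, 5.49 and 6.24 in MKO and 6.39, 7.50 and 7.27 in WT, a difference of −1.09 with no overlap. The other Aco1 probe sets ranged from −1.28 to 1.03, and the highest Ireb2 difference was 0.38, in 17517436, also with no overlap. In 3 of the 23 Aco1 probe sets the MKO arrays lay above all WT arrays, with 17412742 (0.34) and 17412743 (0.21) beside 17412754. For Ireb2 they lay above in 1 of 22 and below in 1. Of single probe sets on the array, 4.69% lay above and 5.21% below. The exons these probe sets read were not analysed here.

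**Figure D3:**
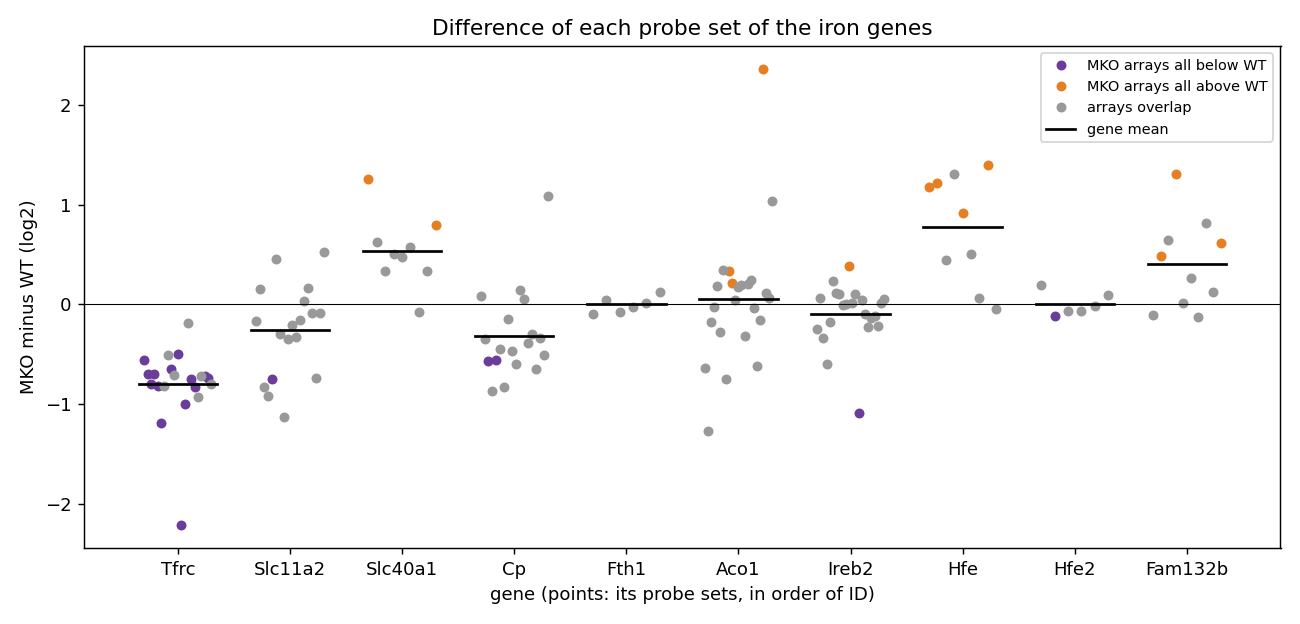
MKO minus WT difference (log2) of each of the 142 probe sets, by gene and in order of probe set ID, coloured by whether the 3 MKO arrays lie below, above or among the 3 WT arrays, with the gene mean as a black line. All 21 Tfrc points lie below 0, 8 of 9 points lie above 0 for both Hfe and Slc40a1, and the Aco1 point at 2.36 stands off from the other probe sets of its gene.

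The systemic sensing genes differed among themselves. Hfe encodes a class I-like membrane protein that binds transferrin receptor 1 in competition with transferrin and, in liver, promotes hepcidin expression. Its mean over 9 probe sets was 5.66, 6.12 and 6.50 in the MKO arrays, against 5.55, 5.56 and 4.84 in the WT arrays. The groups did not overlap, but the gap between MKO replicate 1 and WT replicate 2 was 0.10, and both groups were widely spread. The means were 6.09 ± 0.42 in MKO and 5.32 ± 0.41 in WT (SD, n = 3 each), a log2 difference of 0.77 (SE 0.23) or a 1.71-fold higher level. It was 0.54 without WT replicate 3 and 0.57 without MKO replicate 3, the arrays at both extremes.

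Of the 9 Hfe probe sets 8 were higher in MKO. In 4 of them the MKO arrays lay above all WT arrays, beside 4.69% of single probe sets on the array. The probe set 17291220 stood at 5.69, 5.87 and 5.89 in MKO and 3.55, 4.51 and 5.19 in WT, and 17291216 at 6.66, 6.82 and 6.89 in MKO and 6.45, 5.71 and 5.47 in WT. WT replicate 3 was low in 17291215, at 4.35 against 6.74 and 7.22 in WT replicates 1 and 2. The probe set 17291221 was the 1 Hfe probe set below the median level, and its difference was −0.05. With the median of probe sets the Hfe difference was 0.83 and the arrays overlapped.

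Fam132b is the array's older symbol for the gene of erythroferrone, a hormone that erythroid precursors release to lower hepcidin and that muscle also expresses. Its mean over 10 probe sets was 5.45, 5.06 and 5.33 in the MKO arrays, against 4.96, 4.68 and 4.99 in the WT arrays. The groups lay apart by 0.07, the smallest gap among the 4 genes without overlap. The difference was 0.40 (SE 0.16), a 1.32-fold higher level, with means of 5.28 ± 0.20 in MKO and 4.87 ± 0.17 in WT (SD, n = 3 each). Of its 10 probe sets 8 were higher in MKO. In 3 the MKO arrays lay above all WT arrays, beside 4.69% of single probe sets on the array. Of the 10 probe sets 5 lay below the median level. Among them were 17215772 and 17215766, both without overlap, the latter with the highest difference at 1.31. The brightest, 17215764, stood at 8.80, 8.39 and 8.27 in MKO and 8.06, 7.73 and 8.19 in WT, with no overlap. The next brightest, 17215769, was lower in MKO by −0.12, with overlap. With probe sets above the median level alone, the difference was 0.26 and the arrays overlapped.

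Hfe2 is the older symbol for hemojuvelin, a coreceptor for bone morphogenetic proteins that is abundant in skeletal muscle. Its mean over 6 probe sets was 10.36, 10.40 and 10.41 in the MKO arrays, against 10.43, 10.32 and 10.41 in the WT arrays. The groups overlapped, and the difference was 0.002 (SE 0.07). Its probe set 17400594 was slightly lower with no overlap, at 11.19, 11.05 and 11.20 in MKO and 11.21, 11.22 and 11.36 in WT.

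Of the 10 genes, 5 were higher and 5 lower in MKO, with a median difference of −0.0001, beside 46.6% higher and 53.4% lower and a median of −0.01 over all genes. The MKO arrays lay above the WT arrays for 3 genes (Slc40a1, Hfe and Fam132b), beside 4.26% of all genes, and below them for 1 gene (Tfrc), beside 4.99% of all genes. In either direction the count was 4 of 10, beside 9.25% of all genes. It is a description, because the genes were chosen with this contrast known. The arrays at the extremes were shared in part, since WT replicate 3 was the lowest array and MKO replicate 3 the highest for both Slc40a1 and Hfe.

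The other genes of iron handling were taken from a list of 90 entries, of which 85 had a value. Limma called 0 of the 85 at an adjusted p under 0.05, and 1 had an unadjusted p under 0.05, beside 4.33% of all genes. Of the 85 genes 42 were higher and 43 lower in MKO, with a median difference of −0.01, and their differences ran from −0.47 to 0.29. The MKO arrays lay above the WT arrays for 4 of them, beside 4.26% of all genes, and below for 2, beside 4.99%. Apart from Alas2 (−0.47), every gene of the list lay closer to 0 than Fam132b (0.40), and thus also than Slc40a1, Hfe and Tfrc. That comparison is a description and no test, because Tfrc, Hfe and Slc40a1 drew attention by their differences in these arrays.

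The gene with the unadjusted p under 0.05 was Smad1, which carries bone morphogenetic protein signals to the nucleus and, in liver, to the hepcidin gene. It stood at 5.83, 5.53 and 5.63 in the MKO arrays, against 5.99, 6.26 and 5.87 in the WT arrays. No MKO array reached the WT range, and the difference was −0.38 (SE 0.14, limma adjusted p = 0.9997). Its relative Smad5 differed by −0.26 (SE 0.15) and the receptor gene Bmpr2 by −0.12 (SE 0.08), both with overlapping arrays. Of the 15 genes of hepcidin and bone morphogenetic protein sensing 6 were higher and 9 lower, with a median of −0.07. Hepcidin itself was dim, with Hamp at 1.58 ± 0.37 in MKO and 1.63 ± 0.43 in WT (SD, n = 3 each).

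Among 14 other genes of iron uptake, 8 were higher and 6 lower, with a median difference of 0.02. Scara5, a ferritin receptor, differed by 0.28 (SE 0.15) and Slc39a8 by 0.21 (SE 0.16), both without overlap of the arrays. Lcn2, which binds iron-loaded siderophores, differed by 0.29 (SE 0.16), and Trf, transferrin itself, by −0.35 (SE 0.20), both with overlapping arrays. Of 5 genes of storage, iron chaperones and ferritin breakdown, 2 were higher and 3 lower. The ferritinophagy receptor Ncoa4 stood at 6.04, 6.0 and 6.05 in the MKO arrays, against 6.18, 6.17 and 6.09 in the WT arrays, a difference of −0.12 (SE 0.12) with no overlap. Pcbp1, a chaperone that delivers iron to ferritin, differed by −0.15 (SE 0.13), and the mitochondrial ferritin Ftmt by −0.08 (SE 0.16). The ferroxidases Heph and Hephl1 differed by −0.16 (SE 0.16) and 0.09 (SE 0.18).

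Genes of cellular iron and oxygen sensing, 10 in number, were higher in 3 and lower in 7 cases, with a median of −0.06. Zfp36, an RNA-binding protein that destabilises messages, differed by −0.32 (SE 0.16), the hypoxia factor gene Epas1 by −0.11 (SE 0.08) and the prolyl hydroxylase gene Egln2 by −0.16 (SE 0.12), all with overlapping arrays. Of 19 haem genes 13 were higher and 6 lower, with a median of 0.07. Hmox2, the constitutive haem oxygenase, differed by 0.25 (SE 0.13), the erythroid haem synthesis gene Alas2 by −0.47 (SE 0.27) and Alad by −0.18 (SE 0.16). Of 20 genes of mitochondrial iron and iron-sulphur clusters 9 were higher and 11 lower, with a median of −0.01. The cluster assembly genes Glrx5 and Hscb were higher by 0.14 (SE 0.10) and 0.17 (SE 0.14) with no overlap, and Cisd1 by 0.11 (SE 0.11) with overlap.

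**Figure D4:**
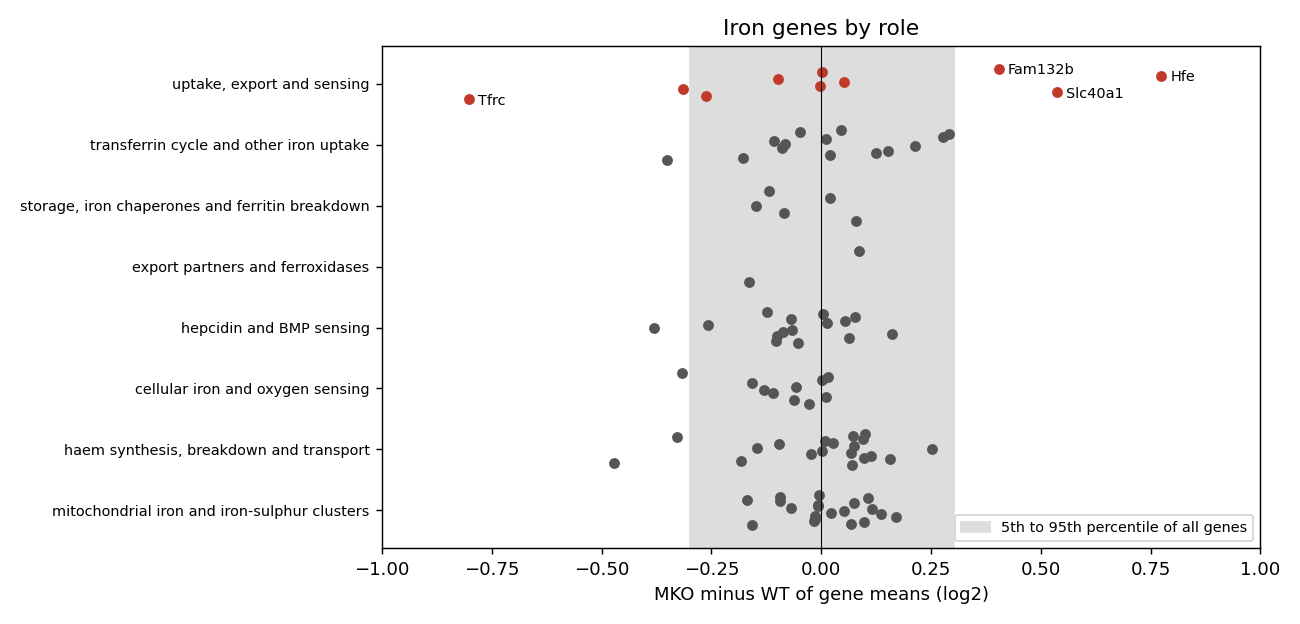
MKO minus WT difference of gene means (log2, horizontal axis) for the 10 iron uptake, export and sensing genes (red, top row) and for 85 other iron genes grouped by role (grey), with the range from the 5th to the 95th percentile of all genes (−0.30 to 0.30) shaded. Tfrc at −0.80 and Hfe at 0.77 lie farthest from 0, and most of the 85 other genes lie in the shaded range.

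Markers of other cells in the muscle were read beside these values. Over all genes 53.4% were lower in MKO, and for 4.99% the MKO arrays lay below the WT arrays. Of 9 endothelial markers 0 were higher and 9 lower in MKO, with a mean level of 6.56 to 6.86 in the MKO arrays and 6.71 to 7.09 in the WT arrays. Only Cldn5 (−0.73, SE 0.15) showed no overlap of the arrays, and the other differences ran from −0.24 (Tek) to −0.02 (Esam). Of 6 markers of satellite cells and immature muscle 4 were lower. The mean level of the 6 was 5.09 to 5.244 in MKO and 5.250 to 5.42 in WT, so the groups were barely apart. Myog and Myh3 led that list, with differences of −0.51 (SE 0.14) and −0.70 (SE 0.15) and no overlap. The satellite cell marker Pax7 (0.24, SE 0.14) and the perinatal myosin gene Myh8 (0.07, SE 0.20) were higher, and Myf5 (−0.24, SE 0.19) and Myod1 (−0.03, SE 0.14) lower, all 4 with overlap. Of 10 macrophage markers 9 were lower, with mean levels of 4.85 to 5.05 in MKO and 5.02 to 5.25 in WT. Cd68 differed most (−0.82, SE 0.26), and the others ran from −0.18 (Csf1r) to 0.07 (Cd163). The arrays overlapped for all 10 of these markers. Macrophages also express Slc40a1, and their part in its values was not tested. Of 6 fibroblast markers 5 were lower, with mean levels of 7.52 to 8.06 in MKO and 7.88 to 8.18 in WT. The adipocyte markers (4.94 to 5.98 in MKO, 5.13 to 5.76 in WT), slow fibre markers (9.89 to 10.07 in MKO, 9.88 to 10.11 in WT) and fast fibre markers (9.78 to 10.82 in MKO, 10.57 to 10.78 in WT) overlapped too. Within the fast fibre list the type IIb myosin gene Myh4 stood at 5.11, 7.94 and 11.51 in the MKO arrays, against 10.89, 9.48 and 11.72 in the WT arrays. MKO replicates 1 and 2 lay below every WT array and MKO replicate 3 within the WT range, and the difference of −2.51 (SE 1.11) was the lowest of all 23152 genes.

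Erythroid precursors carry much transferrin receptor and are a known source of erythroferrone. Of 13 erythroid entries 4 were measured as genes, and 3 of the 4 lay below the median gene of the array. Their mean level was 3.52 to 4.02 in MKO and 3.81 to 3.95 in WT, with overlap. Of the 4 genes 2 were lower in MKO, Klf1 (−0.33, SE 0.18) and Slc4a1 (−0.27, SE 0.20). The other 2, Epb4.2 (0.01, SE 0.22) and Rhag (0.01, SE 0.19), were slightly higher, and the arrays overlapped for all 4. Klf1 was 4.5 ± 0.33 in MKO and 4.83 ± 0.06 in WT (SD, n = 3 each). The part of these cell types in the values of the iron genes was not tested.

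The genes whose array-to-array pattern was most like that of Tfrc were sought by Pearson's r among 10373 genes above the median level over the 6 arrays. The 10 iron genes, olfactory and vomeronasal receptor genes, small RNA genes and genes with a predicted or clone name were left out. This is a description without a test. They were the endothelial tight junction gene Cldn5 (r = 0.991), the immediate early nuclear receptor gene Nr4a1 (r = 0.987), the calcium channel subunit gene Cacnb1 (r = 0.987) and the protein kinase A subunit gene Prkacb (r = 0.984). Cldn5 stood at 5.01 ± 0.08 in MKO and 5.74 ± 0.22 in WT, and Nr4a1 at 7.91 ± 0.10 in MKO and 8.54 ± 0.27 in WT (SD, n = 3 each). Among the endothelial markers Cldn5 alone had arrays that did not overlap. For Slc40a1 they were Uqcrc2 of respiratory complex III (r = 0.991), the ubiquitin ligase gene Rnf31 (r = 0.991), Aifm2 (r = 0.977) and Hscb (r = 0.976). For Hfe they were Fam158a (r = 0.990), Dnajc28 (r = 0.990), Vti1b (r = 0.988) and Ptges2 (r = 0.987). All 12 genes share the 6 arrays and the 2 groups with the gene they resemble, and the groups alone give part of each r.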

How the data were processed

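RNA of the soleus of 3 MKO and 3 WT mice was read on 1 array per mouse, and the mice were separate animals per the labels. The authors deposited log2 values, computed with RMA (background correction, normalization between arrays and probe summary) in Affymetrix Expression Console, per the submitters' processing notes. The sources used here give neither software versions nor the genome build. The design text speaks of gene level, but most genes had several of the table's 269751 rows, which were treated as probe sets. RMA levels of different genes or probe sets are not comparable with each other as amounts of RNA.

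Gene symbols came from an old platform annotation. It gave 1 symbol to 233753 rows, several to 5106 and none to 30892, and the first kind was averaged to 23152 gene means. MKO minus WT was tested in R 4.3.3 by limma 3.58.1 (lmFit, eBayes with a variance trend), two-sided, at a threshold of 0.05 after Benjamini-Hochberg adjustment over all 23152 genes. The SE of each gene difference is limma's moderated one. The lowest two-sided p of an exact permutation test at this size is 0.1, and precision is limited by the number of arrays. The labels name a local pooled error test, which was not run here.

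The 10 genes, the iron list and the marker lists were chosen with earlier results of these data known. Of 90 list entries 82 matched by symbol, 3 by a synonym and 5 were not analysed here. Named were the 10 genes, up to 3 genes per role with the smallest p, the 4 genes most like Tfrc, Hfe and Slc40a1, and genes singled out in the text. The fit was tested on simulated data. The 15 alternatives were array weights, robust moderation, no variance trend, a replicate block, quantile normalization, median centring, genes above the median level, the median of probe sets, probe sets above the median level, and each array left out. Promoter windows come from RefSeq (GRCm38.p6). Tables and figures were made with Python 3.11.15.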

Additional observations from a re-analysis of the deposited data

How the results depend on the processing

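Tfrc stayed lower in MKO with no overlap of the arrays in all 15 alternatives, with differences from −0.94 to −0.65. Hfe (0.54 to 0.99), Slc40a1 (0.28 to 0.63) and Fam132b (0.26 to 0.52) stayed higher in all 15 and lay apart in 14 each. For these genes overlap could arise only under quantile normalization, median centring, the median of probe sets or probe sets above the median level. The other alternatives kept the gene means or dropped an array, which cannot make separate groups overlap. Hfe and Slc40a1 overlapped with the median of probe sets, and Fam132b with probe sets above the median level. The count of the 10 genes lying apart was 4 with the mean of probe sets, beside 9.25% of all genes. It was 2 with the median of probe sets and 3 with probe sets above the median level. With an array left out it was 4 to 5, which is not comparable, because fewer arrays separate more easily. The share over all genes was not computed for the alternatives. Slc11a2, Cp and Aco1 kept their sign in 15 alternatives, Ireb2 in 14, Hfe2 in 11 and Fth1 in 9. The count of genes called over the whole array was 1 with array weights (Rrad, limma adjusted p = 0.0156) and 0 to 1 with an array left out. No iron gene was called in any alternative, and the cause of these shifts was not tested. With the replicate number as a replicate block limma called 0 genes. Same-numbered arrays deviated from their group means with correlations of −0.09, 0.09 and −0.24, and differently numbered ones with −0.23 to 0.30. The numbers thus gave no sign of pairing, but so few arrays cannot exclude it. Dim probe sets limit what can be said of Fam132b and of single probe sets.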
